A study of Mus musculus with 4 samples.

Results

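In mouse hippocampus after global cerebral ischemia, 44 genes gave at least 4 times as much RNA sequencing signal in libraries of astrocyte aromatase knockouts as in libraries of their controls. A gene was kept when its lower level in the GFAP-ARO-KO libraries was at least 1 CPM and at least 4 times its higher level in the FLOX-control libraries. CPM is the read count of a gene for each 1000000 reads assigned to genes in that library. Of 22609 measured gene symbols, 13323 reached 1 CPM in both knockout libraries and 51 of these passed the fold. The rule also leaves out some genes and gene families by name, which set aside 7 of the 51 (Bub1b, Cdkn1a, Kpna2, Pttg1, Rpl29, Rpl3 and Wnt10b) and left the 44 genes described here. The members were chosen by these 4 values themselves, so the distance between the groups in these 44 genes is a description and carries no test.

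All 4 libraries came from the hippocampus of ovariectomized female mice that had both common carotid arteries closed for 20 min and were sampled 24 h after blood flow returned. The ovaries had been removed 1 week earlier, and the age of the animals is not given in the labels. The 2 FLOX-control libraries carry a floxed Cyp19a1, the gene of aromatase, which turns androgens into estrogens. The 2 GFAP-ARO-KO libraries carry in addition Cre recombinase under the promoter of GFAP, an intermediate filament protein of astrocytes, so that Cyp19a1 should be lost in astrocytes. No sham-operated group was analysed here, so a difference in the response to ischemia and a difference present before it cannot be told apart. Nothing in the labels says that the 2 libraries of a group came from separate animals, so p-values measure only the spread between these libraries.

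Depth was similar, with 27930696 to 34878375 reads assigned to genes per library. A count of 0 allows a level of up to 0.086 to 0.107 CPM, by 3 counts of the library total, and covers counting error only. Cyp19a1 itself gave 3 and 2 reads in FLOX-control and 1 and 9 in GFAP-ARO-KO, too few to check the genotype labels. Summed markers of astrocytes ran from 7274 to 8065 CPM, those of dentate granule cells from 993 to 1424 CPM and those of the CA1 field from 1079 to 1342 CPM, so the labelled tissue was present in each library. Meningeal and fibroblast markers summed to 836 and 860 CPM in the controls, to 659 CPM in the first knockout library and to 2858 CPM in the second. In bulk tissue, fewer cells of a type and less RNA per cell cannot be told apart.

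Astrocytes supply neurons with lactate, take up glutamate, break down phospholipid products and, after ischemia, become reactive. In the injured brain they also begin to make aromatase, and locally made estrogen is known as a neuroprotective signal. None of the 44 genes is on the list of 13 astrocyte markers used here. The fold was reached by only 0.383% of genes at 1 CPM in both knockouts, so nothing is read from this. They encode enzymes, carriers and receptors, and also proteins best known from muscle, gut, eye, ear, germ cells or lymphocytes.

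The 44 genes mostly gave few reads. Their lower knockout level ran from 1.00 to 27.9 CPM with a median of 2.51 CPM, and 34 of them stayed under 1 CPM in both controls. Their median log2 CPM, a measure of reads that takes no account of gene length, was 0.602, against 4.50 over the 15011 genes tested. All 44 could be tested, and 43 had an adjusted p under 0.05 with edgeR's quasi-likelihood test, beside 9.39% of all tested genes called higher. The rule used this same contrast, so nothing is read from that count. The ratio of the lower knockout to the higher control was 4 to under 5 in 16 genes, 5 to under 10 in 17, and 10 or more, or against controls at 0, in 11. With the groups merely required not to overlap, 4703 of the 13323 genes (35.3%) had both knockouts above both controls, and the 4-fold step was reached by 0.383%.

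**Figure D1:**
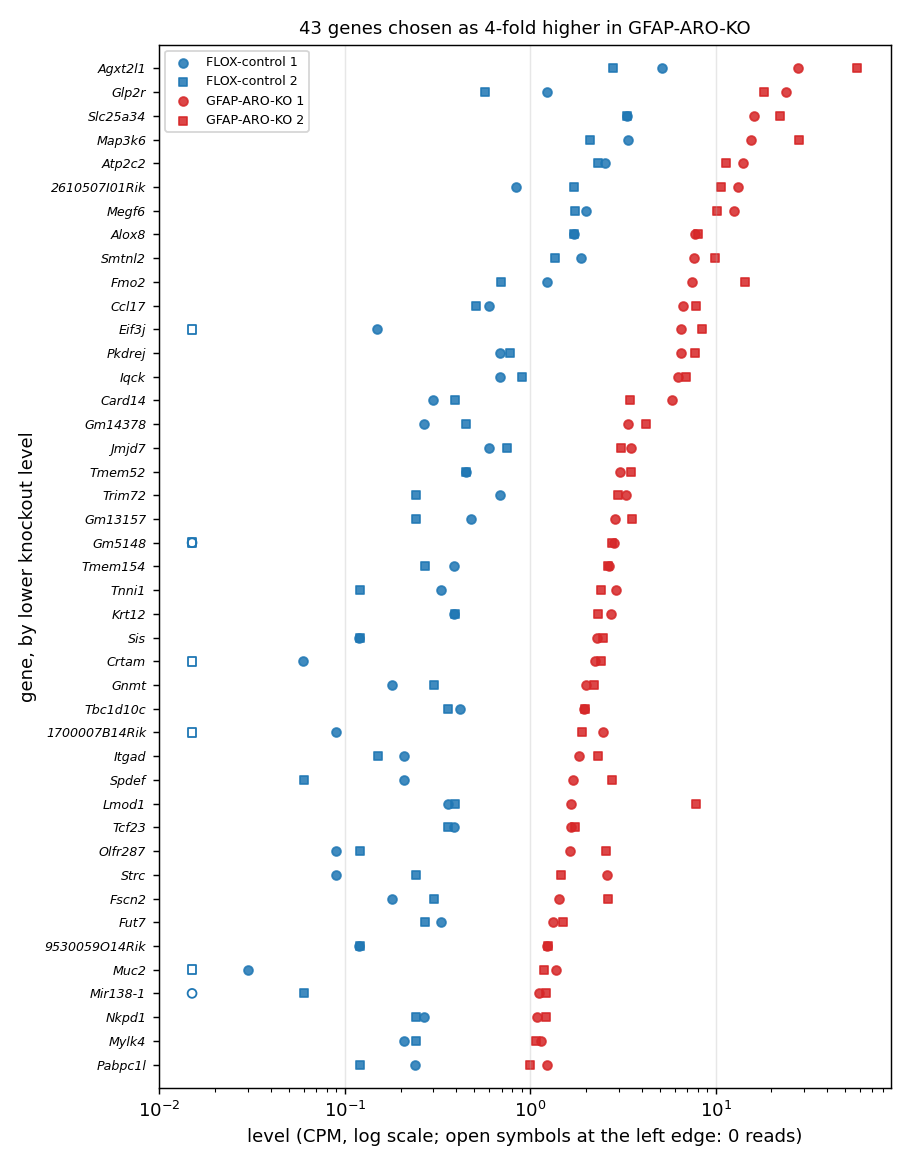
Level of 43 of the 44 genes in the 4 libraries, in CPM on a log axis, with the FLOX-control libraries in blue and the GFAP-ARO-KO libraries in red, circles for the first and squares for the second library of a group, and open symbols for 0 reads. Red and blue are separated by at least a factor of 4 in every row because the rule asked for it, the levels span 1.00 to 58.0 CPM in the knockouts, and Lmod1 has the widest gap between the red symbols.

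Sequences are shown for the genes on which the account turns: the 1 microRNA gene, and the promoters of the enzyme and the receptor with the most reads (Agxt2l1 and Glp2r), of a kinase on the list of glucocorticoid targets (Map3k6), and of the chemokine gene (Ccl17) and the keratin gene (Krt12), which hold a searched motif. MicroRNAs silence messenger RNAs that pair with their seed, bases 2 to 8 of the mature strand. Mir138-1 encodes the hairpin of miR-138, a microRNA known from brain, where it acts at dendritic spines. Its hairpin (RefSeq, GRCm38.p6, chr9:122682876-122682974, plus strand) is given first with both mature arms in capitals, and then each arm with its seed in capitals.
Mir138-1 hairpin: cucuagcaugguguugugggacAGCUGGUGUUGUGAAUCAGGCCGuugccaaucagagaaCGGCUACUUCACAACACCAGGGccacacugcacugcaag
mmu-miR-138-5p: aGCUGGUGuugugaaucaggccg
mmu-miR-138-1-3p: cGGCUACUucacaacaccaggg
The arms are 23 and 22 bases long, shorter than the 50-base reads, so the reads counted under this symbol report on the transcribed locus and not on the mature microRNA.

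The promoters run from 250 bases before to 50 bases after the RefSeq start, 5′ to 3′ on the gene's strand, in GRCm38.p6. Capitals mark a match to a searched motif, a STAT site (TTCNNNGAA) in Ccl17 and a TATA box (TATAAA) in Krt12, and a sequence without capitals holds none of the motifs searched. Agxt2l1 has 2 starts in the table, of which the first is shown.
Agxt2l1 (chr3:130617198-130617497, plus strand): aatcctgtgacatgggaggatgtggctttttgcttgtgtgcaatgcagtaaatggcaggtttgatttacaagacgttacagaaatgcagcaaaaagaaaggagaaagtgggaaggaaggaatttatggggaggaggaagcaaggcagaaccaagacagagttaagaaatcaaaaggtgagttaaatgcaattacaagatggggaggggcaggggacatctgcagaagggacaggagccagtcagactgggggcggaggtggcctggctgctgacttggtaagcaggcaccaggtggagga
Glp2r (chr11:67771104-67771403, minus strand): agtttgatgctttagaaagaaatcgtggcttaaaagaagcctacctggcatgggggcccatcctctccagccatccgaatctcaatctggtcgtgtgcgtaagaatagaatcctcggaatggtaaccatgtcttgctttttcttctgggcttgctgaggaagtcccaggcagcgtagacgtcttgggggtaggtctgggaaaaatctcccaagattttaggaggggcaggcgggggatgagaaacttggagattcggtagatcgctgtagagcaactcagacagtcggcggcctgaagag
Map3k6 (chr4:133240568-133240867, plus strand): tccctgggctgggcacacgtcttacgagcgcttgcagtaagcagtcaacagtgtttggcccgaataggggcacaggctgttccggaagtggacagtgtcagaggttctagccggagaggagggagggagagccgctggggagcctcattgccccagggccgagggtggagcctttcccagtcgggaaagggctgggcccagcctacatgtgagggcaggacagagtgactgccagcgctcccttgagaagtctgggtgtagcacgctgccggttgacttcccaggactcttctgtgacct
Ccl17 (chr8:94810203-94810502, plus strand): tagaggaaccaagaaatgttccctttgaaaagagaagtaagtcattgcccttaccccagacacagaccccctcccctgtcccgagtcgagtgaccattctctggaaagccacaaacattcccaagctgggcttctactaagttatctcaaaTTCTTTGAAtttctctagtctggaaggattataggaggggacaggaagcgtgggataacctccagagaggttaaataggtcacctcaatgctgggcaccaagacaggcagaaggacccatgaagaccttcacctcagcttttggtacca
Krt12 (chr11:99422210-99422509, minus strand): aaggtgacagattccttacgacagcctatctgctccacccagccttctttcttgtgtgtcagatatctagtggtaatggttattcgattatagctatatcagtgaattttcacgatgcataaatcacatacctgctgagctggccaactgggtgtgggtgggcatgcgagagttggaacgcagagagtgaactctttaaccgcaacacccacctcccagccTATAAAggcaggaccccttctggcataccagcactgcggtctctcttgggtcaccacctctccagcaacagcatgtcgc

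Of the enzymes and transporters, 6 genes were in the set. Agxt2l1, now named Etnppl, encodes the lyase that breaks down phosphoethanolamine, a product of membrane lipid, and is known as a gene of astrocytes. It had the most reads of the 44 genes, at 5.14 and 2.80 CPM in FLOX-control and 27.9 and 58.0 CPM in GFAP-ARO-KO. Its means were 3.97 ± 1.65 CPM and 42.97 ± 21.3 CPM (SD, n = 2 each), a 10.8-fold difference, and the second knockout library was 2.08 times the first. Slc25a34, of the family of mitochondrial carriers, had nearly equal controls at 3.31 and 3.34 CPM and knockouts at 16.1 and 22.1 CPM. Atp2c2, a calcium and manganese pump of the secretory pathway, stood at 2.54 and 2.32 CPM in FLOX-control and 14.05 and 11.4 CPM in GFAP-ARO-KO. Here the first knockout library was the higher one, and the means differed 5.25-fold.

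Alox8, a lipoxygenase that oxidizes arachidonic acid, had close replicates in both groups, with 1.73 and 1.72 CPM in FLOX-control and 7.71 and 7.98 CPM in GFAP-ARO-KO. Fmo2, a flavin-containing monooxygenase that oxidizes drugs and other small molecules, was at 1.22 and 0.692 CPM against 7.48 and 14.4 CPM. The knockout libraries of Fmo2 were 1.92-fold apart. Gnmt, a methyltransferase best known from liver, where it uses up methyl donor, gave fewer reads, with a mean of 2.11 ± 0.150 CPM in GFAP-ARO-KO and 0.240 ± 0.0861 CPM in FLOX-control.

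Close relatives of these enzymes did not all share the direction. Atp2c1, the paralog of Atp2c2, was lower in the knockouts, at 247 and 242 CPM in FLOX-control and 117 and 103 CPM in GFAP-ARO-KO (log2 fold change -1.18, edgeR adjusted p = 0.00123). Alox5, the lipoxygenase that starts leukotriene synthesis, was also lower (log2 fold change -1.47, edgeR adjusted p = 0.0225, which became 0.0959 with the first and 0.115 with the second control left out). Of 6 tested lipoxygenase genes, 3 were called higher, Alox8 among them, and 1 lower, where 9.39% and 11% of all tested genes were. Fmo1, which lies 7.77 kb from Fmo2, did not pass (log2 fold change 0.41, edgeR adjusted p = 0.339). Of 39 tested genes of mitochondrial carriers, 8 were called higher, Slc25a34 among them, and 4 lower. These relatives, like the neighbouring genes named further on, were chosen after their values were seen.

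Receptors and signalling proteins were represented by 4 genes. Glp2r, the receptor of an intestinal peptide hormone of the glucagon family, was at 1.22 and 0.572 CPM in FLOX-control and 23.9 and 18.3 CPM in GFAP-ARO-KO. Its means differed 23.5-fold, and the knockouts lay far from both controls. Its relative Glp1r was lower in the knockouts, at 1.10 and 1.78 CPM against 0.487 and 0.465 CPM (log2 fold change -1.61, edgeR adjusted p = 0.0353, which became 0.0593 when the first control was left out, 0.233 when the second was, and 0.07 when the second knockout was). Map3k6, a kinase at the head of a stress-activated MAP kinase cascade, was at 3.37 and 2.11 CPM against 15.4 and 28.3 CPM. In its family 15 Map3k genes were tested. EdgeR called 2 higher (Map3k6 and Map3k15) and 1 lower (Map3k5), where 9.39% and 11% of all tested genes were. Neither Map3k15 nor Map3k5 kept its call with the second control left out. Card14, a scaffold that activates NF-kB and is known from skin, was at 0.298 and 0.391 CPM against 5.85 and 3.47 CPM, higher in the first knockout library than in the second. Gm14378, now named Tgfbr3l for its likeness to a TGF-beta coreceptor, was at 0.269 and 0.451 CPM against 3.38 and 4.22 CPM.

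Immune genes numbered 5. Ccl17, a chemokine that draws T cells through the receptor CCR4, was at 0.597 and 0.511 CPM in FLOX-control and 6.68 and 7.80 CPM in GFAP-ARO-KO, and its groups were each tight. Scaled by exon length, as RPKM (CPM divided by the exon length in kilobases), its level was 13.0 and 15.2 RPKM in the knockouts, against 7.49 and 15.6 RPKM for Agxt2l1 and 6.03 and 8.29 RPKM for Slc25a34. More chemokine genes of the Ccl family were called lower than higher, where 11% of all tested genes were called lower and 9.39% higher. Of 11 tested, 3 were called higher (Ccl17, Ccl22 and Ccl27a) and 5 lower (Ccl12, Ccl2, Ccl25, Ccl3 and Ccl7), and of the 7 that are no members Ccl12 and Ccl2 kept the call with any 1 library left out. Crtam, an adhesion receptor of activated T and natural killer cells, gave 2 and 0 reads in FLOX-control and 78 and 67 in GFAP-ARO-KO. The ratio of knockout to control, from summed reads over summed library totals, was 77.03 with a 95% counting interval of 20.9 to 642. Itgad, an integrin chain of leukocytes, reached a mean of 2.08 ± 0.348 CPM in the knockouts. Fut7, which builds the selectin ligands of leukocytes, and Tbc1d10c, an inhibitor of calcineurin in lymphocytes, were at 1.41 ± 0.131 and 1.96 ± 0.0138 CPM.

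No marker on the lists of leukocytes and microglia was called higher beside these genes, by edgeR, DESeq2 or limma-voom, and 0 were higher at an unadjusted edgeR p under 0.05. Of 14 measured leukocyte markers 2 had enough reads to be tested, edgeR called 0 of them and 1 was lower at an unadjusted p under 0.05. The sums of the 14 were 10.3 and 12.1 CPM in FLOX-control and 6.54 and 10.5 CPM in GFAP-ARO-KO, and Cd3g and Camp were at 0 reads in every library. The part of immune cells in the 5 genes was not tested. The 14 microglial markers summed to 602 and 667 CPM in FLOX-control and 343 and 353 CPM in GFAP-ARO-KO. Of these 14, 11 were called lower, against 11% of all tested genes. Itgam, the integrin gene of microglia that lies between Trim72 and Itgad on chromosome 7, was among them, at 11.8 and 16.7 CPM against 3.61 and 3.80 CPM (log2 fold change -1.97, edgeR adjusted p = 0.00315). The integrin genes Itgam and Itgad, 26.2 kb apart on the same strand, thus had opposite directions.

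Muscle and contractile genes also numbered 5. Smtnl2, a smoothelin-like protein, was at 1.88 and 1.35 CPM against 7.60 and 9.92 CPM. Trim72, which repairs the membrane of striated muscle, was at 0.687 and 0.241 CPM against 3.27 and 2.97 CPM. Tnni1, the troponin I of slow muscle, averaged 2.65 ± 0.351 CPM in GFAP-ARO-KO and 0.224 ± 0.147 CPM in FLOX-control, and Mylk4, a myosin light chain kinase, 1.11 ± 0.0514 and 0.225 ± 0.0224 CPM. Lmod1, leiomodin of smooth muscle, differed most between the knockout libraries. It was at 0.358 and 0.391 CPM in FLOX-control and at 1.66 and 7.84 CPM in GFAP-ARO-KO, so the second knockout library was 4.72 times the first. Lmod1 was also the member that was not called by edgeR with all libraries, nor by limma-voom. It was called by DESeq2, by edgeR with legacy estimation or the replicate block, and with either knockout library left out.

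The second knockout library also had the highest sums of mural and meningeal markers. Markers of mural cells, the smooth muscle cells and pericytes of vessels, summed to 140 and 151 CPM in the controls, 168 CPM in the first knockout library and 486 CPM in the second. None of the 3 smooth muscle genes followed here was at 0: Acta2 was at 8.18 and 6.71 CPM in FLOX-control and 14.99 and 115 CPM in GFAP-ARO-KO, Tagln at 4.03 and 3.07 against 7.68 and 60.9 CPM and Myh11 at 4.87 and 4.66 against 11.8 and 46.3 CPM. Of 13 mural markers 1 was called higher by edgeR with all libraries (7.69%, against 9.39% of all genes). DESeq2 called 6 mural markers higher, and limma-voom 0. Over all genes DESeq2 called 1414 higher and edgeR 1409. Their median log2 fold change was 1.25 with all libraries, 1.88 without the first knockout library and 0.347 without the second. Of 27 tested meningeal markers 1 was called higher by edgeR (3.70%). DESeq2 called 6 meningeal markers higher and 1 lower, and limma-voom 1 higher. The median log2 fold change of the tested meningeal markers was 1.44 with all libraries. It was 2.22 without the first knockout library and -0.246 without the second. The part of these cells in the level of Lmod1 was not tested.

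**Figure D2:**
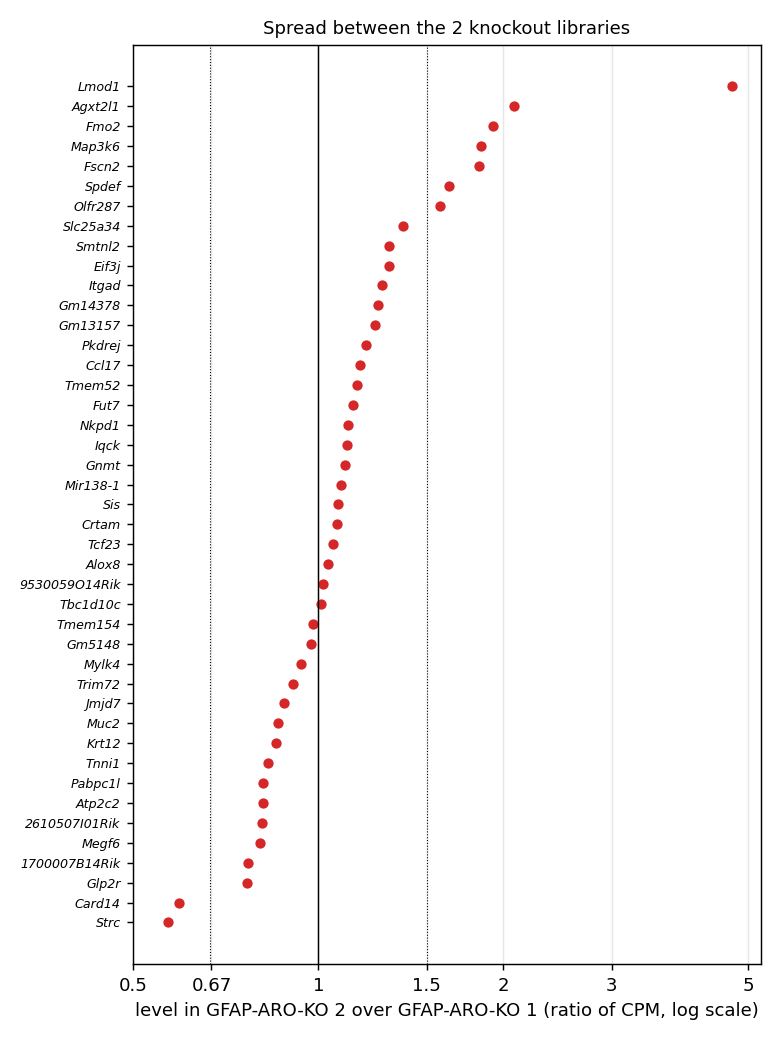
Ratio of the second to the first GFAP-ARO-KO library for 43 of the 44 genes, on a log axis, with a solid line at equal levels and dotted lines at a 1.5-fold gap in either direction. Most points lie between the dotted lines, 7 genes lie above them with Lmod1 at 4.72, and Card14 and Strc lie below.

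Over all 44 genes the second knockout library was the higher one in 28, and the ratio of the second to the first ran from 0.569 to 4.72 with a median of 1.07. The libraries were over 1.5-fold apart in 9 genes. Of these, Lmod1, Agxt2l1, Fmo2, Map3k6, Fscn2, Spdef and Olfr287 were higher in the second, and Strc and Card14 in the first.

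Epithelial and gut genes numbered 4, all below 3 CPM in every library. Krt12, the keratin of the corneal surface, averaged 0.390 ± 0.0021 CPM in FLOX-control and 2.53 ± 0.280 CPM in GFAP-ARO-KO. Sis, sucrase-isomaltase of the intestinal brush border, averaged 0.120 ± 0.0007 and 2.38 ± 0.125 CPM, a 19.9-fold difference. Spdef, a transcription factor of mucus-secreting cells, averaged 0.135 ± 0.105 and 2.22 ± 0.753 CPM. Muc2, the main gel-forming mucin of the gut, gave 1 and 0 reads in FLOX-control and 48 and 33 in GFAP-ARO-KO, a ratio of 86.1 with a 95% counting interval of 15.015 to 3441. A list of 19 carbonic anhydrases, transporters and epithelial genes that includes Krt12 showed no common direction. Of its 12 tested genes 2 were higher, Krt12 among them, and 2 lower by edgeR, where 9.39% and 11% of all tested genes were. Of 12 tested keratin genes, Krt12 and Krt9 were called higher, and Krt9 did not pass without the first (adjusted p = 0.115) or the second knockout library (0.0721).

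Genes best known from sense organs or germ cells numbered 5 among those described. Pkdrej, a polycystin-like protein of sperm, had the most reads of them, at 0.687 and 0.782 CPM in FLOX-control and 6.51 and 7.77 CPM in GFAP-ARO-KO. Fscn2, an actin bundler of photoreceptors and hair cells, Strc, stereocilin of the inner ear, Olfr287, an odorant receptor gene, and Pabpc1l, a poly(A)-binding protein of oocytes, all had controls of at most 0.301 CPM. Their knockout means were 2.02 ± 0.834, 2.02 ± 0.787, 2.11 ± 0.667 and 1.12 ± 0.163 CPM in that order. Pabpc1l marked the lower edge of the set at 1.00 CPM in the second knockout library.

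Regulators of transcription and translation and a protein-modifying enzyme made up 4 genes. Eif3j, now named Eif3j1, encodes a subunit of a translation initiation complex and had the largest ratio among genes with reads in a control. It gave 5 and 0 reads in FLOX-control and 227 and 237 in GFAP-ARO-KO, a ratio of 98.6 with a 95% counting interval of 41.9 to 305. Only 24.2% of the 50-base windows of its exons occurred at a single place in the genome. Of 13 tested genes with Eif3 symbols, 2 were called higher, Eif3e and the member Eif3j, where 9.39% of all tested genes were. Jmjd7, a Jumonji-domain hydroxylase, was at 0.597 and 0.752 CPM against 3.50 and 3.08 CPM. Gm13157, now named Zfp984 and so a zinc finger gene, was at 0.478 and 0.241 CPM against 2.87 and 3.54 CPM. Tcf23, a basic helix-loop-helix factor, averaged 0.375 ± 0.0191 CPM in FLOX-control and 1.71 ± 0.0646 CPM in GFAP-ARO-KO.

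The 3 noncoding genes were 2610507I01Rik and 9530059O14Rik, both annotated as long intergenic RNAs, and Mir138-1. 2610507I01Rik was at 0.836 and 1.72 CPM in FLOX-control and 13.2 and 10.7 CPM in GFAP-ARO-KO, the sixth highest of the set by its lower knockout CPM. Mir138-1 gave 0 and 2 reads in FLOX-control and 39 and 34 in GFAP-ARO-KO, a ratio of 38.8 with a 95% counting interval of 10.4 to 326. 9530059O14Rik averaged 0.120 ± 0.0007 CPM in FLOX-control and 1.24 ± 0.0143 CPM in GFAP-ARO-KO, and it ends 3.28 kb before Mir138-1 on the same strand of chromosome 9, with no measured gene between them. The other locus of the same mature microRNA, Mir138-2, gave 5 and 0 reads in FLOX-control and 7 and 10 in GFAP-ARO-KO, which left it out of the test. Of 20 microRNA genes that could be tested, 4 were called higher, Mir138-1 among them, and 1 lower, where 9.39% and 11% of all tested genes were.

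Another 7 genes are described by name or family only. Megf6, a protein with EGF-like repeats, was at 2.00 and 1.75 CPM against 12.6 and 10.1 CPM. Iqck, a protein with a calmodulin-binding IQ motif, was at 0.687 and 0.903 CPM against 6.25 and 6.95 CPM, and Tmem52, a membrane protein, at 0.448 and 0.451 CPM against 3.04 and 3.51 CPM. Gm5148 had 0 reads in both controls and 99 and 77 in the knockouts, at least 30.5-fold higher than the level that 3 counts per control library would give. 1700007B14Rik, now named Iqcm, gave 3 and 0 reads against 86 and 53, a ratio of 49.2 with a 95% counting interval of 16.5 to 242. The means of Tmem154 were 0.330 ± 0.0830 and 2.64 ± 0.0373 CPM and those of Nkpd1 0.255 ± 0.0198 and 1.15 ± 0.0904 CPM, controls first.

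Counting error weighs on the large ratios. At least 1 control library was at 0 reads for 6 of the 44 genes, the reads of both controls together numbered under 20 for 19 genes, and their median was 23.5. The 6 are Crtam, Muc2, Eif3j, Mir138-1 and 1700007B14Rik, whose intervals are given above, and Gm5148.

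Genes on either side of the thresholds had like values. Just inside the 4-fold line lay Fut7 (4.02), Smtnl2 (4.04), Nkpd1 (4.05) and Jmjd7 (4.09). Just outside it lay 4930426L09Rik (3.95), Slc2a4 (3.93), BC018473 (3.91), Tinagl1 (3.87) and Gabrr2 (3.85). Slc2a4, the insulin-responsive glucose transporter, at 14.1 CPM, and Tinagl1, a basement membrane protein, at 22.6 CPM in the lower knockout gave more reads than most of the members. At the level line, Pabpc1l, Mylk4 and Nkpd1 were just inside at 1.00, 1.07 and 1.09 CPM, and BC037032, Adam21 and Skor1 were just outside at 0.975, 0.946 and 0.931 CPM.

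**Figure D3:**
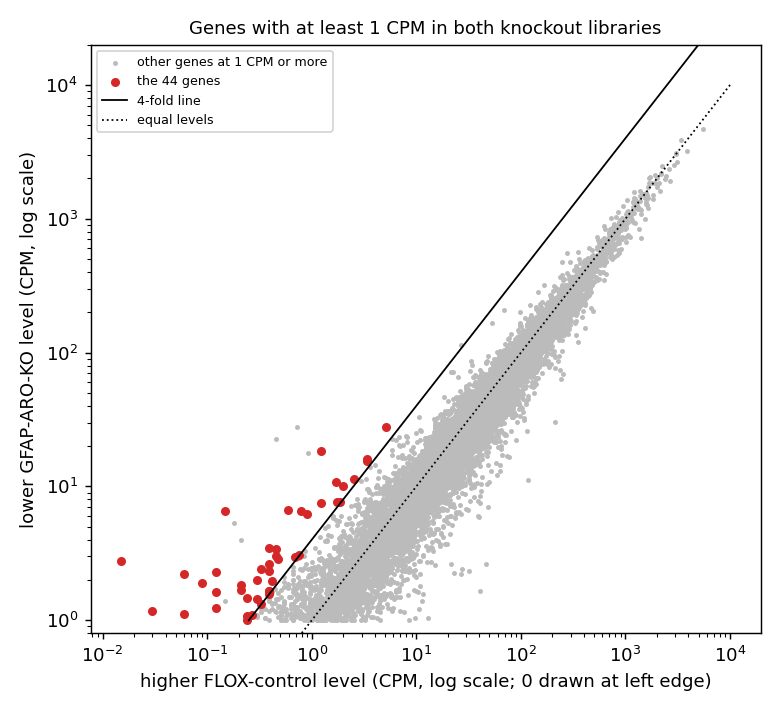
Lower GFAP-ARO-KO level against higher FLOX-control level, both in CPM on log axes, for the 13323 genes with at least 1 CPM in both knockout libraries, with the 44 genes in red, a solid 4-fold line and a dotted line of equal levels. The red points sit at the low end, 34 of them left of 1 CPM in the controls, and the 7 genes set aside by name appear in grey above the solid line.

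In the GENCODE vM1 annotation of NCBIM37, the assembly of mm9, 43 of the 44 symbols had a single position; Jmjd7 was not placed. The 43 comprised 40 protein-coding genes, 2 long intergenic RNAs and 1 microRNA. Their median exon length was 3248 bp, against 3856 bp over genes at 1 CPM. Predicted or clone-named symbols made up 13.6% of the 44 genes and 7.63% of genes at 1 CPM. Chromosome 11 held 7 members (16.3%, against 8.24% of genes at 1 CPM) and chromosomes 4 and 7 held 5 each. Chromosomes 6, 10, 14, 16 and X were among those with 0. With the groups of the rule exchanged, to keep genes lower in the knockouts, 48 genes passed before the exclusions by name. Among those left with a position, chromosome 11 also held 7 genes, and chromosomes 7 and 4 held 5 and 4. Other chromosomes differed: chromosome 5 then held 5 genes, against 1 member. Chromosomes 8 and 9 then held 0, against 4 and 3 members. Among the members with the most reads, Agxt2l1 lies at chr3:130320366-130338668 (plus strand), Glp2r at chr11:67475004-67584655 (minus strand), Slc25a34 at chr4:141174739-141179736 (minus strand) and Map3k6 at chr4:132796733-132808844 (plus strand), all in mm9.

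**Figure D4:**
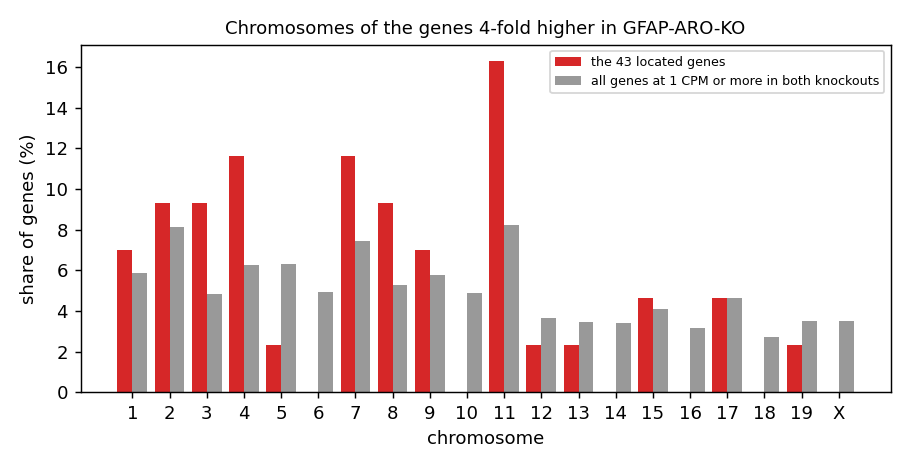
Share of genes on each chromosome, in percent, for the 43 members with a position (red bars) and for all genes with at least 1 CPM in both knockout libraries (grey bars). Chromosome 11 has the tallest red bar at 16.3%, and several chromosomes have none.

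Members were seldom neighbours of each other. The closest were 9530059O14Rik and Mir138-1, then Trim72 and Itgad (143 kb, with 2 measured genes between them), Lmod1 and Tnni1 (415 kb, 4 genes) and Strc and Eif3j (641 kb, 13 genes). The nearest member to Cyp19a1 on chromosome 9 was Crtam, 13.2 Mb away.

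Genes around the members were called higher at a slightly larger share than all genes tested. Within 1 Mb, 138 of 1193 other tested genes were called higher by edgeR (11.6%, against 9.39% of all genes) and 120 lower (10.1%, against 11% of all genes), with a median log2 fold change of 0.02 against -0.001. Of the 84 genes next to a member, 7 were called higher (8.33%) and 8 lower (9.52%), below the shares of all genes. The share called higher within 1 Mb was 3.77% with the first control left out and 3.19% with the second left out, where 2.28% and 1.93% of all tested genes were called higher. It was 16.8% without the first knockout library (15.6% of all genes) and 11.4% without the second (8.50% of all genes). For the 84 adjacent genes, the share called higher was above that of all genes with a control left out, at 5.95% without the first and 4.76% without the second, which rest on 5 and 4 genes. It was 14.3% without the first knockout library, below that of all genes, and 10.7% without the second, above it.

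A few members did have a neighbour that changed with them. Alox12b and Aloxe3, lipoxygenases of the skin barrier, lie 14.1 and 34.8 kb from Alox8. Alox12b rose from 5.11 and 6.41 CPM to 28.1 and 22.2 CPM (log2 fold change 2.11, edgeR adjusted p = 0.00133), and Aloxe3 from 7.55 and 8.004 CPM to 23.8 and 23.9 CPM (log2 fold change 1.59, edgeR adjusted p = 0.00123). Both calls were kept with any 1 library left out. Ttc38, 10.6 kb from Pkdrej, rose from 5.88 and 5.87 CPM to 18.8 and 27.9 CPM (log2 fold change 1.96, edgeR adjusted p = 0.00275), also kept with any 1 library left out.

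Scarcer neighbours depended on a control library. Ccl22, the other chemokine for the receptor of Ccl17, lies 58.8 kb from it and was at 0.269 and 0.180 CPM against 0.918 and 1.36 CPM (log2 fold change 2.27, edgeR adjusted p = 0.0187, which became 0.0867 with the first and 0.132 with the second control left out). Tmem82, 191 bp from Slc25a34 on the same strand, was at 0.328 and 0.150 CPM against 1.20 and 2.22 CPM (log2 fold change 2.75, edgeR adjusted p = 0.0149, and 0.0956 without the second control). The let-7 genes Mirlet7b and Mirlet7c-2, 107 and 108 kb from Pkdrej, had log2 fold changes of 1.80 and 2.60 (edgeR adjusted p = 0.0216 and 0.0141), which did not pass without the second control (0.165 and 0.0979); for Mirlet7b the call was also lost without the first (0.102). Other neighbours went down. Pex6, a peroxisome assembly gene 123 bp from Gnmt on the other strand, was at 97.03 and 97.9 CPM against 43.2 and 33.5 CPM (log2 fold change -1.37, edgeR adjusted p = 0.00172).

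Overlap with other genes and repeated sequence limit some of these counts. An exon is shared with another annotated gene in 11 members, and whether the counting used strand was not given in the sources used here. Such genes could share reads. In 7 of the 11 the partner could be tested, 8 partners in all, and 1 of these was called. Among the others, Gas7 beside Glp2r had a log2 fold change of -0.02 (edgeR adjusted p = 0.907), Sgsh beside Card14 of -0.05 (0.854), Spg11 beside Eif3j of -0.20 (0.477), Map2k7 beside Gm14378 of 0.33 (0.0538) and Cox6a2 beside Itgad of 0.63 (0.0919). Cox6a2 was at 2.24 and 2.17 CPM in FLOX-control and 3.53 and 3.40 CPM in GFAP-ARO-KO, against 1.83 and 2.33 CPM for Itgad in GFAP-ARO-KO, while Gas7 was between 596 and 713 CPM. Ckmt1, which overlaps Strc, was lower (log2 fold change -0.52, edgeR adjusted p = 0.00932, which became 0.0581 with the first and 0.0758 with the second control left out). Of 43 members searched, 29 had every 50-base window of their exons at a single place in the genome, counting exact matches, and 38 had at least 90% of windows so. The exceptions were Eif3j (24.2% of windows at a single place), Gm13157 (39.0%), Olfr287 (67.8%), Itgad (88.8%) and Gm5148 (89.2%). Alignments that were not unique were tallied apart, at 35.73% to 37.35% of entries per library, and did not enter the counts. Counts of these 5 genes could thus miss reads from repeated windows. They could also hold reads of near-identical copies, and their values are uncertain to that extent.

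Glucocorticoids are released in stress and switch on a known set of genes through their receptor, and Map3k6 is a member of the list of such targets used here. The list was drawn up with earlier results of these data known. It shared only Map3k6 with the 44 genes, while Cdkn1a, which was set aside by name, is also on it. Both passed the level and the fold of the rule, so nothing is read from their calls, which are counted next. Of its 25 tested genes 16 were called higher by edgeR (64%, against 9.39% of all genes), 1 was called lower and 8 did not pass, with a median log2 fold change of 0.934 against -0.001. The summed level was 1892 and 1586 CPM in FLOX-control and 2528 and 2864 CPM in GFAP-ARO-KO. The median log2 fold change of the list was 1.13 without the first control and 0.763 without the second. It was 0.995 without the first knockout library and 0.868 without the second. Over all genes tested the median ran from -0.003 to 0.019 in these fits. Fewer genes of the list were called in each of these fits than with all libraries.

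Fkbp5, which binds the glucocorticoid receptor as a co-chaperone, rose from 116 and 122 CPM to 228 and 235 CPM (log2 fold change 0.93, edgeR adjusted p = 0.00178). Plin4, a lipid droplet protein, rose from 18.2 and 18.2 CPM to 51.9 and 46.8 CPM (log2 fold change 1.41, edgeR adjusted p = 0.00115). Sult1a1, a sulfotransferase, and Hif3a, a hypoxia-inducible factor, rose by 1.86 and 1.80 on the log2 scale (edgeR adjusted p = 0.00244 and 0.00178). The groups did not overlap in any of these 4 genes, as in 35.3% of genes at 1 CPM with both knockouts above both controls, and each call was kept with any 1 library left out. Angptl4, a lipase inhibitor, was at 3.31 and 3.79 CPM against 8.80 and 19.3 CPM, and its call (log2 fold change 1.94, edgeR adjusted p = 0.0218) was lost without the first (0.149) or the second control (0.135). Sgk1, a kinase that glucocorticoids induce, did not pass at 167 and 82.6 CPM against 188 and 192 CPM (log2 fold change 0.58, edgeR adjusted p = 0.248), its controls differing most. Galnt9, a glycosyltransferase, was lower (log2 fold change -1.12, edgeR adjusted p = 0.00271).

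**Figure D5:**
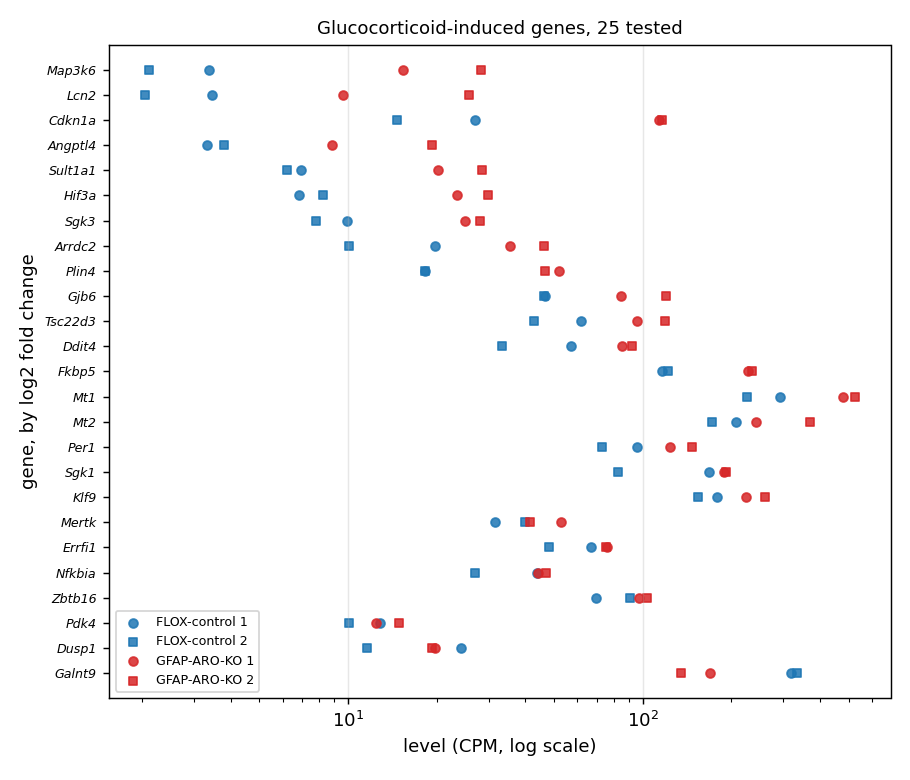
Level of the 25 tested glucocorticoid target genes in the 4 libraries, in CPM on a log axis, ordered by log2 fold change, with the FLOX-control libraries in blue, the GFAP-ARO-KO libraries in red, circles for the first and squares for the second library. Red lies to the right of blue in the upper rows, led by Map3k6, where the rule asked for it, and to the left in Galnt9 at the bottom.

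Other lists shared no gene with the set apart from Krt12 in the epithelial list. Of 8 tested genes of estrogen synthesis and response, edgeR and limma-voom called 0, DESeq2 called 1 lower, and 2 were lower at an unadjusted edgeR p under 0.05. Of 42 tested genes known to vary between mouse strains or substrains, 8 were called higher and 6 lower by edgeR, where 9.39% and 11% of all tested genes were. None of these 42 genes was among the 44 genes. The fold was reached by only 0.383% of genes at 1 CPM, so nothing is read from lists that share no gene with the set.

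RefSeq promoters were found for 35 of the 44 genes. Their median GC content was 55%, against 61.3% for 10509 promoters of genes at 1 CPM and 52.7% for all 27025 promoters in the table. Each motif was searched on both strands, except the TATA box, which was searched on the gene's strand. The cyclic AMP response element (TGACGTCA) was in 1 of the 35 promoters, Nkpd1 (2.86%, against 1.88% of all promoters and 3.23% of those of genes at 1 CPM). The AP-1 site (TGANTCA) was in 3, Eif3j, Muc2 and Tmem154 (8.57% against 7.93% and 4.68%). The STAT site was in 2, Ccl17 and Jmjd7 (5.71% against 8.47% and 6.58%), and the match in the printed Ccl17 promoter begins at position -99 from the start. The E-box (CACGTG) was in 1, 9530059O14Rik (2.86% against 7.24% and 10.1%).

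The TATA box was in 3 promoters, Krt12, Muc2 and Sis (8.57% against 8.88% and 4.03%). The match begins at position -29 in Krt12, -174 in Muc2 and -134 in Sis. The full estrogen response element and the full glucocorticoid response element were in 0 of the 35, as in nearly all other promoters of that length (present in 0.067% and 0.048%). A half-site of the glucocorticoid receptor (AGAACA), added after the data were seen, was in 5 of the 35 (14.3%, below the 19.02% of all promoters and above the 11.9% of those of genes at 1 CPM): 1700007B14Rik, Mylk4, Olfr287, Spdef and Tnni1. The members' shares rest on 1 to 5 genes each. A match to letters is not a binding site.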

How the data were processed

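The authors deposited raw HTSeq read counts per gene symbol, 1 file per library, from 50 bp single-end reads of total RNA libraries aligned to mm9 with TopHat2 2.0.8b, per the submitters' processing notes and the labels' protocols. The design text says that libraries were run in duplicate and reads combined before alignment. HTSeq's version, strand setting and annotation were not given in the sources used here. Left out were 5 tally rows that name no gene, with 45.17% to 47.3% of entries.

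CPM was computed from gene count totals, with no further scaling. All genes kept by filterByExpr (15011) were tested with edgeR 4.0.16 in R 4.3.3 (TMM, glmQLFit with legacy=FALSE and robust estimation, glmQLFTest, Benjamini-Hochberg, threshold 0.05), 2 libraries against 2, after a test on simulated counts. Groups came from the sample titles. Intervals of ratios are 95% counting intervals on summed reads. limma-voom (limma 3.58.1) and DESeq2 1.42.0, other scalings and filters, a replicate block and leaving out each library were alternatives. The members and gene lists were chosen with earlier results of these data known. Of the 44 members 1 is counted but not reported here; values per library are given for the 20 with the highest lower knockout CPM, and for others where reads are few or libraries differ. Positions come from GENCODE vM1 on NCBIM37; current symbols, promoters and microRNAs from RefSeq.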

Additional observations from a re-analysis of the deposited data

How the results depend on the processing

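With all libraries, scaling, filters, DESeq2, limma-voom, legacy estimation and the replicate block left the number of genes called within 1.5 times the 1409 higher and 1652 lower. Leaving out a library gave 296 to 2388 higher and 517 to 2433 lower genes, the fewest without a control and the most without the first knockout library; the lone library left in a group is then assumed to vary like the other group. Of the 44 genes 35 to 44 then passed, against 43 with all libraries. Over 12 alternative fits, the log2 fold changes of the 44 genes gave 528 values, of which 0 reversed. The rule had placed both knockouts above both controls, so this direction was fixed by the choice of genes. Nothing is read from it or from the number of members that passed. The call was lost in 16 values, most of them without a control library, and gained in 5, all for Lmod1. Agxt2l1 did not pass without the first (adjusted p = 0.101) or the second control (0.137), or with the replicate block (edgeR adjusted p = 0.0645). The set itself moved with its rule: 100 genes at 3-fold, 15 at 8-fold, 66 at 0.5 CPM, 27 at 2 CPM, 146 by group means and 60 to 165 with 1 library left out. TMM scaling kept 41, losing Fut7, Jmjd7 and Pabpc1l. The cause of these shifts was not tested, apart from the fewer libraries or other limits that define them. Same-numbered libraries did not deviate together (r = -0.0057 over 15011 genes). This rests on a single difference per group, so it cannot show whether the numbers mark a shared batch. With the replicate number as a block, 1449 genes were higher, 1745 lower and 43 of the 44 passed. With 2 libraries a group, and controls near 0 reads for many members, the size of most ratios is loosely known.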
